A study of Homo sapiens with 6 samples.

Results

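BLOC-1 is a small cytosolic complex built from the products of 8 genes, BLOC1S1 to BLOC1S6, SNAPIN and DTNBP1. These 8 genes were taken by name from the 57905 gene IDs in the count files, each matched 1 ID, and all 8 passed the filter on low counts. The complex helps tubules and vesicles to bud from endosomes and so delivers cargo to lysosome-related organelles such as melanosomes and platelet granules. BLOC1S1, BLOC1S2 and SNAPIN also belong to BORC, a complex that places lysosomes in the cell. BLOC1S1 is a classic substrate of regulated IRE1-dependent decay, in which the RNase of the endoplasmic reticulum stress sensor IRE1 cuts mRNAs other than that of XBP1. The favoured site of IRE1 is the motif CUGCAG held in the loop of a hairpin, with the cut just after its first G.

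The RNA came from NCI-H929, a human multiple myeloma cell line, here called H929. In every reaction 5 µg of total RNA was kept for 1 hour at 37 °C in a HEPES buffer with salt, DTT and ATP, and heating to 95 °C for 5 minutes ended it. The IRE1 group (3 libraries) received 2 µg of recombinant human IRE1 (residues 467 to 977, the cytosolic kinase and RNase part), and the control group (3 libraries) had the same incubation without the enzyme. The cleavage thus took place on purified RNA in a tube, with no cellular decay, and mRNA was then selected by its poly(A) tail. The labels number the libraries 1 to 3 in each group but do not say whether they came from separate cultures, so p-values measure only the spread between these libraries, which may be technical.

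The depth on genes was 19615715 to 25678499 counts per library. Of 14398 genes tested, 1781 (12.4%) were lower and 1489 (10.3%) were higher with IRE1 at an adjusted p under 0.05. The median log2 fold change was 0.0045, and with library size as the only scaling it was -0.071. The scaling used here sets the bulk of genes near no change. A higher call thus means a larger share of the counts and not more of an mRNA. The IRE1 libraries differed more among themselves than the controls did, with chi-square values per gene of 3.39 to 10.95 between pairs of IRE1 libraries and 2.21 to 3.07 between controls. IRE1 replicate 1 stood furthest from the controls (22.5 to 29.2) and IRE1 replicate 3 nearest (7.96 to 10.1). Plasma cell markers were abundant as a sum in all libraries, with summed normalized counts of 93344 to 93726 in controls and 94392 to 99065 with IRE1. Of these 6 markers 1 was called lower and 2 higher with IRE1. CD38 had the fewest counts, 408 to 623 per library, below CD3E. Of 6 markers of other blood cells only CD3E was above the filter, at 890 to 1063 counts per library, while CD3D, CD14, LYZ, MPO and HBA1 had 0 to 9 counts.

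BLOC1S1 was searched first for the sites that IRE1 could recognise. Its canonical transcript of 562 bases held CUGCAG at 3 places, and each is given here in RNA letters with 12 bases on either side and the motif in capitals.
BLOC1S1 base 448, exon 4, coding: uacaaagggcagCUGCAGucugccccuucc
BLOC1S1 base 176, exon 2, coding: gagaggcuaucaCUGCAGcgaccugccuga
BLOC1S1 base 145, exon 1, coding: gaacgcaaggagCUGCAGgaaaagaggagg
The window at base 448 lies at chr12:56113361-56113390 on the plus strand of GRCh37, that at base 176 at chr12:56110729-56110758, and the motif at base 145 at chr12:56109974-56109979 beside an exon junction. When each motif was folded with 15 bases on either side, the one at base 448 sat in a loop of 7 bases closed by 6 stacked pairs, with a folding energy of -9.70 kcal/mol. The motif at base 176 sat in an 8-base loop with 3 stacked pairs, and that at base 145 in an 8-base loop with only 2, under the minimum of 3 set here. These folds did not allow lone base pairs. With lone pairs allowed, the first C and last G of the motif at base 448 paired with each other across a bulge, which left a loop of 4 bases. That is under the minimum of 5 bases set here, so this copy then did not count as a hairpin loop.

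The motif was then sought in other genes. Of the canonical transcripts of 12225 tested protein-coding genes, 10426 (85.3%) held CUGCAG, 4644 (38.0%) held it in a hairpin loop of 5 to 11 bases, and 958 (7.84%) in a loop of exactly 7 bases. A loop of 7 bases closed by at least 6 stacked pairs was found in 217 (1.78%), a limit taken from BLOC1S1 after its fold was seen. These shares grow with length, and the transcript of BLOC1S1 is short. Among 240 genes with transcripts of like length (the shorter at least 0.8 of the longer), 40% held CUGCAG, 11.7% held it in a hairpin loop, and 2.08% held 3 or more copies of CUGCAG as BLOC1S1 did. Its folding energy was less particular, since 10571 of 40159 windows (26.3%) folded at least as firmly.

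The sites of the other subunits that sat in hairpin loops, and the one of DTNBP1, are shown in the same way. BLOC1S6 held 4 copies of CUGCAG, 1 more than BLOC1S1, and as many in hairpin loops.
BLOC1S2 base 322, exon 4, coding: aaauaugcuggaCUGCAGccuuaucuggau
BLOC1S3 base 2027, exon 2, 3′ UTR: guuuccuuccuuCUGCAGgcccaaaaugau
BLOC1S6 base 2535, exon 5, 3′ UTR: auuugggaccaaCUGCAGugguuguuuaaa
BLOC1S6 base 3329, exon 5, 3′ UTR: aggaguucaaggCUGCAGugaauucugauc
DTNBP1 base 805, exon 8, coding: uccacuggcuacCUGCAGauugcagagcgg
On GRCh37 these windows lie at chr19:45684512-45684541 for BLOC1S3, chr15:45900651-45900680 and chr15:45901445-45901474 for BLOC1S6 (all plus strand) and chr6:15533475-15533504 for DTNBP1 (minus strand), and the BLOC1S2 motif lies at chr10:102039972-102039977 (minus strand) beside a junction. The BLOC1S2 motif sat in a 5-base loop with 4 stacked pairs, that of BLOC1S3 in a 9-base loop with 3, and those of BLOC1S6 in a 5-base loop with 4 and a 9-base loop with 8. The DTNBP1 motif was not in a hairpin loop, nor was the single copy in BLOC1S5, and the transcripts of BLOC1S4 and SNAPIN held no CUGCAG. In all, 4 of the 8 subunits had CUGCAG in a hairpin loop, and BLOC1S1 alone of the 8 had CUGCAG in a loop of 7 bases. By the looser motif CNGCAG (N for any base), DTNBP1 also had 7-base loops. These were at bases 114, 117 and 742, with 3, 3 and 7 stacked pairs, and stayed with lone pairs allowed. With 25 flanking bases none of these DTNBP1 copies counted as a hairpin loop, while that of BLOC1S1 at base 448 did. A match of letters and a predicted fold are descriptions of these transcripts, and these gene counts measure no cleavage site. For BLOC1S1 the paper cites earlier work that names the guanine at which IRE1 acts. Counted in coding bases, the first G of the motif at base 448 has the number given there.

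**Figure D1:**
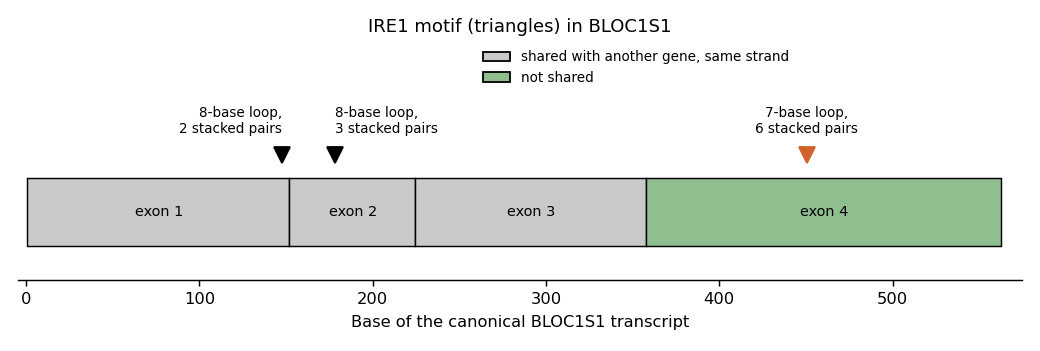
The canonical BLOC1S1 transcript drawn to scale in transcript bases, with exons as boxes and the 3 copies of CUGCAG as triangles, each with its predicted loop and number of stacked pairs. The copy in the 7-base loop (orange) lies in exon 4, the only exon of this transcript that no same-strand gene shares.

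BLOC1S1 was much lower in RNA incubated with IRE1. Its product is a shared subunit of BLOC-1 and BORC and has also been linked to protein acetylation. The gene (ENSG00000135441) lies at chr12:56109822-56113871 on the plus strand. Normalized counts were 607, 584 and 651 in the control libraries and 276, 230 and 212 in the IRE1 libraries. All IRE1 libraries were far below all controls, and the lowest control was above the highest IRE1 library by more than the whole range of either group. The mean fell from 614 ± 34.01 to 239 ± 33.0 (SD, n = 3 each), which left 39.0% of the control count. In the paper's account, poly(A) selection loses only the 5′ part of a cut mRNA. The count can thus include 3′ fragments, and 39.0% is not the share of BLOC1S1 mRNA left uncut. This was a log2 fold change of -1.37 (SE 0.0950, 95% confidence interval -1.57 to -1.16), with an adjusted p of 1.25e-06 by edgeR's quasi-likelihood test. The exact two-sided permutation test over the 6 libraries gave p = 0.1, the smallest that 3 against 3 allows. Over the 10302 tested genes whose mean reached 100 normalized counts, BLOC1S1 had the lowest log2 fold change. The paper had used BLOC1S1 as a known target to check the reaction. By qRT-PCR across the cut site, unlike a count over the gene, it was markedly lower in the 3 samples with IRE1. In H929 cells the paper also found less BLOC1S1 mRNA under inducers of ER stress, an effect reverted by an inhibitor of the IRE1 RNase.

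The call for BLOC1S1 held under all 16 alternative fits, with log2 fold changes of -1.53 to -1.27 and adjusted p of 6.18e-45 to 0.000263. Without IRE1 replicate 1, the library furthest from the controls, it was -1.47. The count of this gene may rest on part of its exons. Exons 1 to 3 of its canonical transcript, 357 of 562 bases, are shared on the same strand with the gene ENSG00000258311, and read pairs that fall there can be set aside as ambiguous. In this transcript only exon 4 (chr12:56113283-56113487, 205 bases) is unshared, and 1162 of 1655 bases are over all annotated exons. A cut after the first G of the motif at base 448 would leave 93 bases of exon 4 before it and 112 after it. ENSG00000258311 itself had 1 to 7 counts per library, and adding its counts gave a log2 fold change of -1.35. So few counts could hardly move the value, and pairs set aside as ambiguous are in neither count. This fit, 1 of the 16, thus cannot show what the overlap took away. ITGA7, on the opposite strand, shares 119 exon bases outside the canonical transcript and had 499 to 717 counts. The strand setting of the counting was not given in the sources used here, so a part from ITGA7 cannot be told apart.

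**Figure D2:**
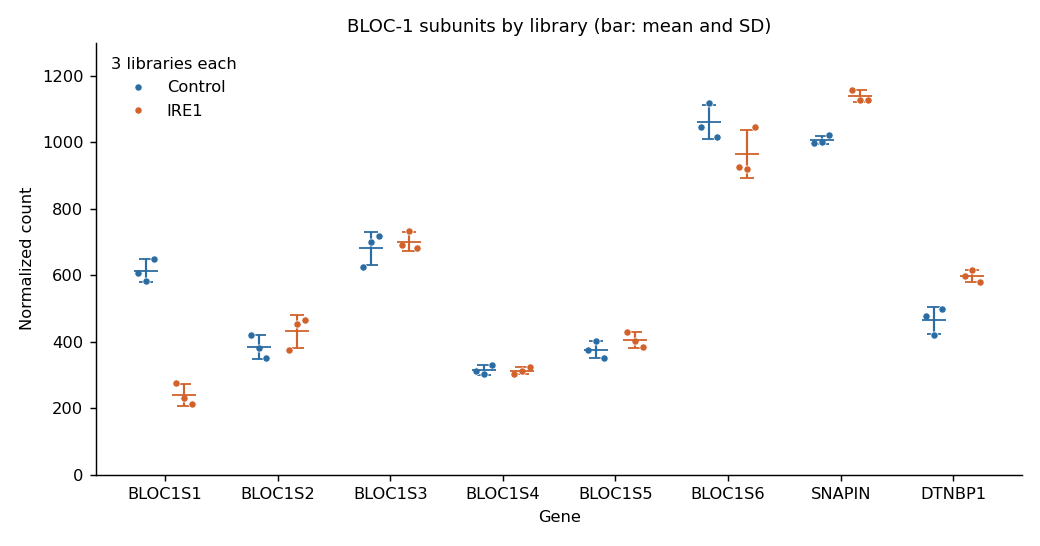
Normalized counts (y axis, linear from 0) of the 8 BLOC-1 genes (x axis) in 3 control (blue) and 3 IRE1 libraries (orange), with the mean and SD as bars. BLOC1S1 fell from 614 to 239, while the 2 groups lay close together or overlapped for the other genes.

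DTNBP1 and SNAPIN were also called, both higher as a share of the counts and by much less. DTNBP1 encodes dysbindin, the subunit first known from its binding to dystrobrevins. The gene (ENSG00000047579) lies at chr6:15523038-15663289 on the minus strand. Its normalized counts were 477, 421 and 499 in controls and 599, 617 and 579 with IRE1, with no overlap between the groups. On the log2 scale the difference was 0.36 (SE 0.0774, 95% confidence interval 0.197 to 0.526, adjusted p = 0.0039 by edgeR). The higher call of DTNBP1 held under all 15 alternatives, from 0.24 with a length and GC trend removed to 0.41 without Control replicate 3.

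SNAPIN, a subunit shared with BORC that also binds the SNARE protein SNAP25, lies at chr1:153631179-153634328 on the plus strand (ENSG00000143553). Its normalized counts were 999.6, 1002 and 1021 in controls and 1159, 1129 and 1128 with IRE1. The groups did not overlap and the spread within each was narrow, with means of 1008 ± 11.8 and 1138 ± 17.8 (SD, n = 3 each). As a log2 fold change this was 0.18 (SE 0.0540, 95% confidence interval 0.0614 to 0.290, adjusted p = 0.0283 by edgeR). This call was lost in 9 of 15 alternatives. With library size as the only scaling the log2 fold change was 0.10 (adjusted p = 0.216), and with the length and GC trend removed it was 0.0079 (adjusted p = 0.947). It was also lost without Control replicate 1, 2 or 3 or IRE1 replicate 2, with adjusted p of 0.0656 to 0.115, while the log2 fold change in these fits stayed at 0.17 to 0.19. ILF2, on the opposite strand, shares 65 exon bases with SNAPIN, all in the canonical transcript of SNAPIN, and had 15821 to 19245 counts. As the strand setting of the counting was not given, a part from ILF2 in the SNAPIN counts cannot be told apart.

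The 5 remaining subunits did not pass the test, and in each the control and IRE1 libraries overlapped. BLOC1S2 (ENSG00000196072, chr10:102033037-102046437, minus strand), the third subunit shared with BORC, had normalized counts of 422, 380 and 351 in controls and 376, 453 and 465 with IRE1. IRE1 replicate 1 lay within the control range and the other IRE1 libraries above it, with a log2 fold change of 0.17 (95% confidence interval -0.037 to 0.37, adjusted p = 0.233). Without that library the value was 0.26 and passed the test (adjusted p = 0.0316).

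BLOC1S3 (ENSG00000189114, chr19:45682042-45720191, plus strand) is a gene of Hermansky-Pudlak syndrome, a disorder of pigment and platelets. It had 625, 700.2 and 720 normalized counts in controls and 691, 733 and 681 with IRE1. The log2 fold change was 0.04 (95% confidence interval -0.106 to 0.194, adjusted p = 0.706), and its sign turned to -0.031 with library size as the only scaling.

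BLOC1S4 (ENSG00000186222, chr4:6717901-6719391, plus strand), a gene of 1 exon, was the nearest to no change. Its normalized counts were 311, 302 and 331 in controls and 304, 313 and 323 with IRE1. The 95% confidence interval of its log2 fold change ran from -0.187 to 0.177, and the adjusted p was 0.977.

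BLOC1S5 (ENSG00000188428, chr6:8013800-8064629, minus strand), the human form of the mouse pigment gene muted, had 376, 401 and 351 normalized counts in controls and 431, 402 and 384 with IRE1. Its log2 fold change was 0.10 (95% confidence interval -0.0742 to 0.283, adjusted p = 0.413). It shares 372 and 375 exon bases with the read-through genes BLOC1S5-TXNDC5 and EEF1E1-BLOC1S5, which had at most 2 counts per library.

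BLOC1S6 (ENSG00000104164, chr15:45879412-45908143, plus strand), also called pallidin, binds the endosomal syntaxin STX12 and is another Hermansky-Pudlak gene. Its normalized counts were 1047, 1118 and 1017 in controls and 926, 920.5 and 1047 with IRE1, so that IRE1 replicate 3 matched the controls and the others lay below them. Its log2 fold change was -0.14 (95% confidence interval -0.274 to 0.0037, adjusted p = 0.155). It was called lower with library size as the only scaling (-0.21, adjusted p = 0.0493) and without IRE1 replicate 3 (-0.19, adjusted p = 0.0267). ENSG00000260170 shares 175 of its exon bases and had 0 to 2 counts.

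Over the complex, 1 of 8 subunits was called lower and 2 were called higher, beside 12.4% and 10.3% of all tested genes. Every IRE1 library lay below every control for 1 subunit and above for 2, beside 20.0% and 19.1% of all tested genes. The median log2 fold change of the 8 subunits was 0.0743. A count of 1 or 2 among 8 genes is near these shares, so the count gives no result about the complex. The confidence interval of the BLOC1S1 change did not overlap with that of any other subunit.

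**Figure D3:**
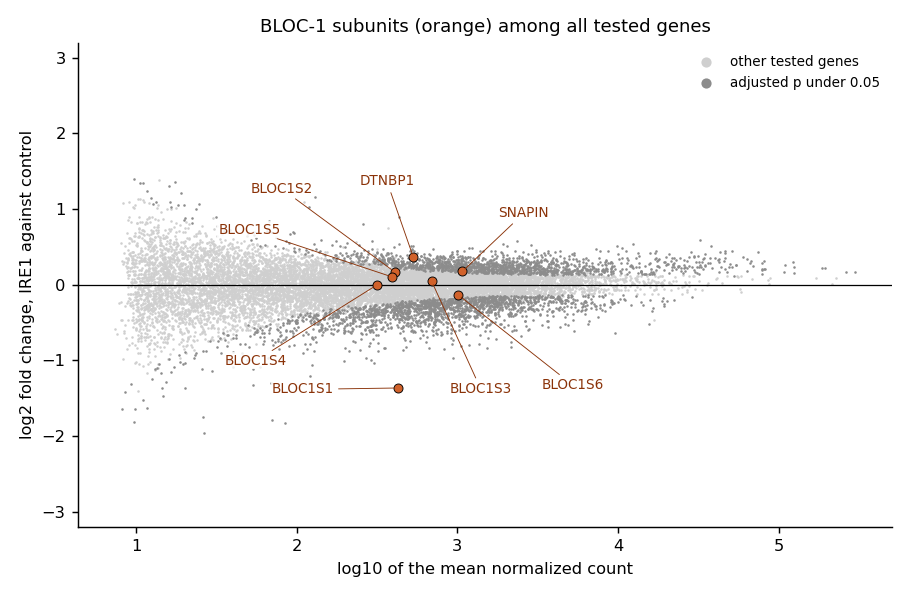
The log2 fold change of IRE1 against control (y axis) against the log10 of the mean normalized count (x axis) for 14398 tested genes, with those at an adjusted p under 0.05 in darker gray and the 8 BLOC-1 genes in orange. BLOC1S1 at -1.37 lies below all genes of similar or higher count, while the other subunits lie between -0.14 and 0.36.

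The subunits differed in level before any cleavage. Levels are given as CPM per kilobase of exon, with all annotated exons of a gene joined. The order depends on this length. BLOC1S1 has 1655 joined exon bases but a canonical transcript of 562, and SNAPIN has 1517 and 1003. Levels per kilobase of canonical transcript were not computed, and the order of SNAPIN and BLOC1S1 and the rank of BLOC1S1 with IRE1 may differ by that length. In control RNA, by joined exons, SNAPIN was highest at 29.8 ± 0.349, followed by BLOC1S1 at 16.7 ± 0.923, BLOC1S4 at 9.48 ± 0.456 and BLOC1S3 at 9.07 ± 0.665 (SD, n = 3 each). BLOC1S6 (7.03 ± 0.343), DTNBP1 (6.86 ± 0.598), BLOC1S2 (5.93 ± 0.550) and BLOC1S5 (5.12 ± 0.342) came last. SNAPIN and BLOC1S1 were apart from each other and from the rest, and BLOC1S3 was apart from BLOC1S6. The other neighbours in this order overlapped over their 3 libraries.

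With IRE1 the level of BLOC1S1, with any 3′ fragments counted in, was 6.49 ± 0.897 CPM per kilobase. Its place moved from rank 2 to rank 6. There it overlapped with BLOC1S2 (6.65 ± 0.752) above and BLOC1S6 (6.40 ± 0.474) below. SNAPIN stayed first at 33.7 ± 0.528. Per kilobase of the longest annotated transcript the control level of BLOC1S1 was 22.4 and that of SNAPIN 37.6, and BLOC1S3, BLOC1S6 and DTNBP1 (11.95, 11.9 and 11.1) then came above BLOC1S4 (9.48). Per kilobase of exon that no same-strand gene shares, BLOC1S1 was at 23.7 in controls and 9.25 with IRE1, which put it at rank 4 with IRE1, above DTNBP1 (8.82).

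The genes that work with BLOC-1 were then read from lists of 8 kinds, 48 genes in all, of which 45 were tested. Of these 9 were lower and 1 was higher, beside 12.4% and 10.3% of all tested genes, and their median log2 fold change was -0.034. The same shares stand beside each list below. With 2 to 9 tested genes per list, a count gives no result about a list. None of the 5 BORC subunits outside BLOC-1 passed edgeR's test, and the count was 0 by DESeq2 and by limma as well. At an unadjusted p under 0.05 there were 2, KXD1 (0.15, adjusted p = 0.103) and BORCS8 (0.20, adjusted p = 0.138), both above controls. The list's median log2 fold change was 0.15.

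Of the machines that make lysosome-related organelles, BLOC-2 had 1 of 3 subunits lower. This was HPS3, at 792 ± 38.5 in controls and 669 ± 47.9 with IRE1 (log2 fold change -0.24, adjusted p = 0.0211). Neither subunit of BLOC-3, the exchange factor for RAB32 and RAB38, passed edgeR's test, with 0 also by DESeq2 and limma, and HPS4 was at -0.19 (adjusted p = 0.0813, unadjusted p = 0.0229). The AP-3 adaptor, which sorts cargo from endosomes beside BLOC-1, had 2 of 7 subunits lower. These were AP3B1 (-0.19, adjusted p = 0.0287) and AP3M1 (-0.17, adjusted p = 0.0322). Of the AP-1 adaptor, which acts at the trans-Golgi network and recycling endosomes, 1 of 7 tested subunits was lower, the large subunit AP1G1 (1864 ± 96.1 to 1492 ± 51.1, log2 fold change -0.32, adjusted p = 0.000901).

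The genes that act in moving lysosomes along microtubules held 3 of the 9 partner genes called lower. The scaffold SPAG9 was at 666 ± 48.3 in controls and 462 ± 44.4 with IRE1 (-0.53, adjusted p = 0.00053), the lowest log2 fold change among the called partner genes. The kinesin KIF1B was at 3071 ± 151 and 2201 ± 251 (-0.48, adjusted p = 0.000306). The kinesin KIF5B, a motor that works with BORC, was at 1550 ± 29.2 and 1193 ± 66.8 (-0.38, adjusted p = 0.000361). These 3 of 9 tested genes were lower and none was higher, beside 12.4% and 10.3% of all tested genes. The list is too small for this count to give a result about it.

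Among the sorting partners and cargo, ATP7A, a copper transporter that BLOC-1 delivers to melanosomes, fell from 228 ± 28.6 to 162 ± 20.0 normalized counts (log2 fold change -0.49, adjusted p = 0.0103), and it was the only 1 of 8 tested to pass. STX12 (-0.052) and VAMP7 (-0.076), SNAREs of this route, did not pass. Of 4 acetylation genes, KAT2B was lower (-0.43, adjusted p = 0.00147) and ATAT1, the α-tubulin acetyltransferase, was higher (0.39, adjusted p = 0.0265).

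Among the 9 partner genes called lower, IRE1 replicate 1 had the lowest of the IRE1 values in 8 and IRE1 replicate 3 the highest in all 9. KIF1B was at 1936, 2231 and 2437 normalized counts in IRE1 replicates 1, 2 and 3, and BLOC1S1 went the other way, with its highest value in replicate 1. Without IRE1 replicate 1 the count of partner genes called lower was again 9.

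The 9 partner genes called lower have long mRNAs, with longest annotated transcripts of 4410 to 10855 bases, while that of BLOC1S1 is 1229 bases. The tested partner genes that were not called run from 1065 to 12859 bases, so some of them are as long. The part of length in these calls was not tested. With the trend over length and GC content removed, 6 partner genes were lower, and BLOC1S1 was at -1.53. Without Control replicate 2 or IRE1 replicate 2, 5 partner genes were lower, while over all tested genes the lower calls went from 1781 to 992 and 1089. Without IRE1 replicate 3, 12 partner genes were lower, and no partner gene was called higher without Control replicate 1 or 2 or IRE1 replicate 2.

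**Figure D4:**
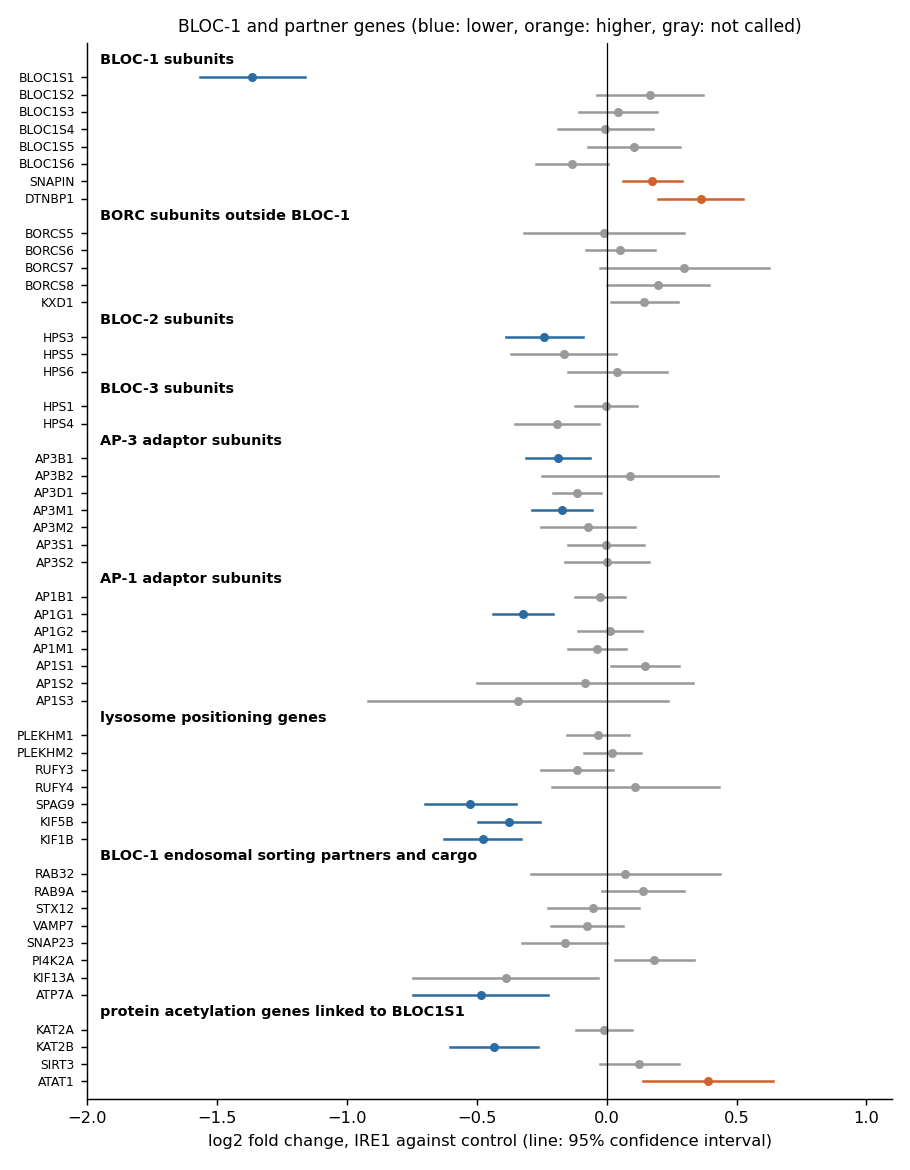
The log2 fold change of IRE1 against control (x axis, points) with its 95% confidence interval (lines) for the 8 BLOC-1 genes and the tested partner genes, grouped by list, with 2 genes not shown. BLOC1S1 at -1.37 lies well outside the range of the partner genes, whose lowest called value is -0.53 for SPAG9.

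The 5 genes nearest to BLOC1S1 over the 6 libraries were listed, with no cutoff on distance. BLOC1S1 had the lowest log2 fold change of the genes compared, so its nearest neighbours were bound to be lower too. Likeness was measured as the Euclidean distance between 2 genes' 6 log2 deviations from the control mean, over the other 10301 genes whose mean reached 100 normalized counts. The nearest was AAK1, an endocytic kinase that acts on the AP-2 adaptor, at a distance of 0.451, with 167 ± 8.39 normalized counts in controls and 72.5 ± 6.30 with IRE1 (log2 fold change -1.20). PDK2, a kinase that inhibits pyruvate dehydrogenase, came next at 0.795 and went from 1241 ± 74.6 to 636 ± 28.8 (-0.96). TRIM56, SMCR8 and UTRN followed at distances of 0.828, 0.891 and 0.895, with log2 fold changes of -0.995, -1.04 and -1.01. Their longest transcripts run from 3364 bases for PDK2 to 21157 for AAK1, so BLOC1S1 is the shortest mRNA of the 6.

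**Figure D5:**
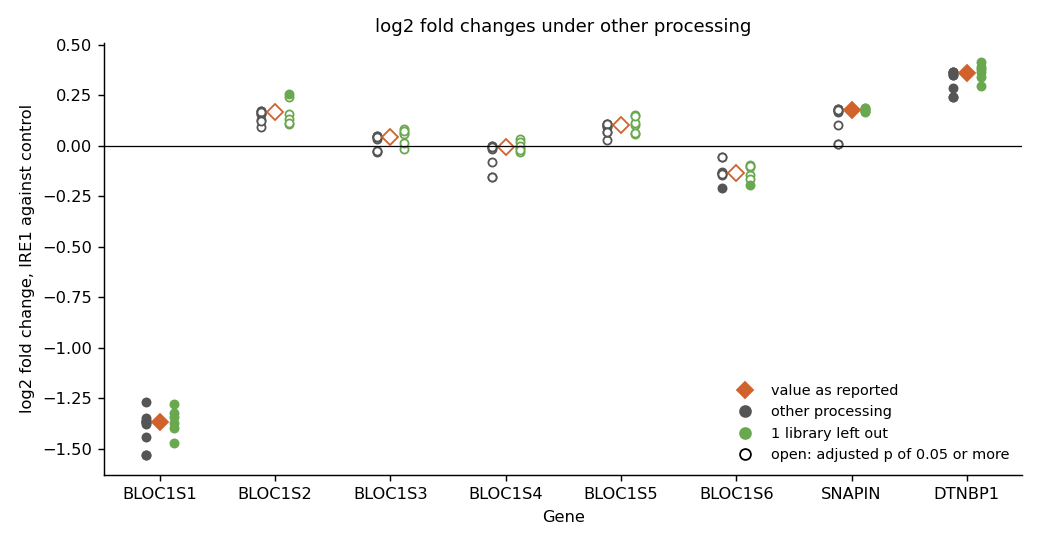
The log2 fold change of IRE1 against control (y axis) of each BLOC-1 gene (x axis) as reported (orange), under other processing (gray) and with 1 library left out (green), open where the adjusted p is 0.05 or more. BLOC1S1 stays between -1.53 and -1.27 and DTNBP1 between 0.24 and 0.41, while SNAPIN drops to 0.0066.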

How the data were processed

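Total RNA of H929 cells with or without recombinant IRE1 was made into poly(A)-selected TruSeq stranded libraries. The authors trimmed reads with cutadapt 1.12, aligned them to GRCh37 (hg19; Ensembl) with STAR 2.5.3a and counted with HTSeq 0.6.1p1, and the deposited values are raw counts per gene. Overlap mode and strand setting were not given in the sources used here. The authors also deposited a CPM table made with edgeR 3.24.3, which was used only in an alternative. Summary lines, 21.4 to 23.2% of all counts, name no gene and were left out.

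Gene names, exons and transcripts came from GENCODE on GRCh37, which named 55538 of 57905 IDs. The counts were tested with edgeR 4.0.16 (R 4.3.3) on all 6 libraries without covariates, using filterByExpr, TMM, the quasi-likelihood test and Benjamini-Hochberg adjustment at 0.05. Normalized counts were scaled by TMM to the average library. The fit was tested on simulated data. Alternatives were DESeq2 1.42.0, library size or upper quartile scaling, other filters, limma 3.58.1 on log2 CPM plus 1, a replicate block, a loess trend (span 0.5) over length and GC content removed, and each library left out. Motifs in Ensembl canonical transcripts were folded with ViennaRNA 2.7.2. Lone pairs were barred after the default folds failed to return hairpins planted in simulated RNA.

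Members and lists were chosen with earlier results of these data known. Named are all members, up to 4 called genes per partner list, the 5 genes most like BLOC1S1 and genes whose exons overlap a member's. Some markers and some partner genes that were not called are named as well, without a set rule. Counting error limits low counts and is part of each fit. Of the partner genes, 2 enter the counts but are not reported here by name.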

Additional observations from a re-analysis of the deposited data

Results flagged for a closer look

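Outside the gene counts, the share of read pairs that fell on more than 1 gene was higher in every IRE1 library, at 4.22, 4.24 and 4.11% of all counts in the files for IRE1 replicates 1, 2 and 3, against 3.93 to 4.03% in controls. The files do not say which genes these pairs fell on. Read pairs without a unique alignment took 12.58, 11.44 and 11.41% in IRE1 replicates 1, 2 and 3, against 10.68 to 11.40% in controls. Both were noted because each IRE1 library lay above all controls in lines that no comparison uses, and their part in the results was not tested.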

How the results depend on the processing

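The lower call of BLOC1S1 and the higher call of DTNBP1 held under every alternative run. With library size as the only scaling, 683 genes were called higher, 79.2% of calls were lower (54.5% as reported), 2 BLOC-1 subunits were lower (BLOC1S1 and BLOC1S6) and 1 higher, and 0 partner genes were higher. BLOC1S3 then was at -0.031. With the length and GC trend removed, 761 genes were lower (39.4% of calls), 1 BLOC-1 subunit was higher and BLOC1S3 was at -0.025. With the replicate block as well, 656 genes and 4 partner genes were lower, 1 BLOC-1 subunit was higher and BLOC1S3 was at -0.027. With no filter on low counts 1 BLOC-1 subunit was higher. The replicate numbers were not taken to pair the libraries, since same-numbered libraries correlated at -0.031, -0.00082 and -0.10 after group means were removed. The replicate block gave 1496 genes lower and 1117 higher, with 1 BLOC-1 subunit higher (SNAPIN was lost, adjusted p = 0.0791) and 7 partner genes lower. With 1 library left out, 972 to 2221 genes were lower and 638 to 2091 higher, 1 to 2 BLOC-1 subunits were lower and 1 to 3 higher, and 5 to 12 partner genes were lower and 0 to 4 higher. BLOC1S3 ranged from -0.017 (without Control replicate 1) to 0.084, and BLOC1S4 from -0.034 to 0.032 (without Control replicate 3), with 0.020 without IRE1 replicate 1. The cause of these moves was not tested. Of the 8 subunits, 5 had a hairpin loop with CNGCAG, 3 with 25 flanking bases, 1 with a 7-base loop and 3 with lone pairs allowed, the last chosen after seeing the data, as was the level per unshared exon base. At 212 to 651 normalized counts in BLOC1S1, and at 302 to 331 in BLOC1S4, the intervals given reflect depth and the spread between libraries. A change as small as those inside the BLOC1S4 interval may have been missed.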

Other observations

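Genes with a site built like that of BLOC1S1 were counted as a description, by a limit taken from BLOC1S1 itself. Of 217 tested genes with CUGCAG in a 7-base loop closed by at least 6 stacked pairs, 53 (24.4%) were lower and 11 (5.07%) higher with IRE1, beside 13.99% and 11.3% of all 12225 genes searched. Their median log2 fold change was -0.050, beside -0.0044. BLOC1S1, which set the limit and is counted among the 53, was the lowest of the 217, which adds nothing to its own value. Their median canonical transcript was 4560 bases, beside 3367 for all genes searched, and its part in these shares was not tested.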
